A study of Mus musculus with 2 samples.

Results

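Interferon-stimulated genes (ISGs) were followed across the leukocytes of mouse blood by single-cell RNA sequencing, as a list of 42 named genes of the type I interferon response. Of the 42, 40 had a row in the count table and 38 had at least 20 transcripts in some cell population. A transcript here is a unique molecular identifier (UMI), which counts each captured RNA molecule once. All mice were C57BL/6, young ones aged 2 to 4 months and aged ones 18 to 24 months. Both groups had a transient blockage of the proximal middle cerebral artery (MCAo), a model of ischaemic stroke, 24 h before blood was taken, so neither group shows the level without stroke. Each age had 1 library of cells sorted as CD11b+ Ly6G- and CD11b+ Ly6G+, that is, myeloid cells without and with the neutrophil surface antigen Ly6G. The question taken from the labels was how circulating myeloid cells compare between these ages after stroke. For the interferon genes the first question was in which cells each was present at a basal level.

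Type I interferons bind the receptor chains encoded by Ifnar1 and Ifnar2. Kinases at the receptor then activate a transcription factor complex, ISGF3, of which STAT2 and IRF9 are subunits. ISGF3 binds interferon-stimulated response elements in promoters and switches on a wide set of antiviral genes. Many of these genes also keep a low level of transcription without infection, maintained by small amounts of interferon, and some are part of the normal programme of certain leukocytes. The products sense foreign nucleic acid (Ifih1, Ddx58, Zbp1), bind or degrade viral RNA (the Ifit and Oas families), hold virions at the cell surface (Bst2) or feed back on the pathway (Irf7, Usp18).

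The table listed 11691 genes. The young library had 1849 cells and 6440664 UMIs, the aged one 3944 cells and 13752454 UMIs. The authors' population labels gave 1144 young and 2681 aged neutrophils, 552 and 993 monocytes, 53 and 107 conventional dendritic cells (label cDC), 73 and 63 NK cells and 14 and 41 follicular B cells. There were also 44 mast cells, all aged, and 13 and 15 cells labelled Eryth-Neutro. Depth differed between labels, with medians of 1636.5 and 1914 UMIs per neutrophil but 6604 and 6366 per monocyte. With 1 library per age there was no replicate, no test was made, and each statement compares these libraries. Levels are in CPM, the usual count scale in which a gene's UMIs are divided by all UMIs of the label in that library. Pairs of values are in the order young, aged, with exact 95% Poisson intervals that cover counting error only. A lower CPM in such a sum may come from fewer cells with the transcript or from less RNA per cell, and these cannot be told apart by the sum alone. In addition, 12 cell barcodes occurred in both libraries.

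The labels were checked against marker genes. Neutrophil markers summed to 332901 and 419624 CPM in neutrophils. Monocyte markers summed to 7715 and 7226 CPM in monocytes against 995 and 1066 in neutrophils. The dendritic list stood at 18640 and 18966 CPM in the cDC label, but it was also at 14926 and 12639 in B cells, which share its MHC class II genes, and Xcr1, Clec9a and Zbtb46 were at 0 in the young cDC cells. The NK label also carried T cell markers at 455 and 727 CPM. The cells labelled Eryth-Neutro were mostly erythroid, with erythroid markers at 884926 and 655546 CPM. Mast cells held mast or basophil markers at 7392 CPM. S100a8, S100a9 and Retnlg, abundant neutrophil transcripts, were counted in every other label, at 3.64% to 11.97% of their summed neutrophil level and at 25.4% in the aged Eryth-Neutro cells. In young monocytes S100a8 stood at 16636 CPM and Retnlg at 1840, against 5610 and 1859 in young NK cells, and monocytes may transcribe S100a8 themselves. How much of these values is free RNA and how much the cells' own was not tested.

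Promoter sequences were examined first, because they hold the element through which ISGF3 acts. RefSeq promoters of build GRCm38.p6 were matched to 33 of the 42 genes, from 250 bases before to 50 bases after the transcription start. Ifi204, Ifi27l2a, Mx1, Mx2, Oas2, Parp14, Rtp4, Usp18 and Zbp1 had no entry. The core of the interferon-stimulated response element was searched as GAAANNGAAA on both strands (read as TTTCNNTTTC from the other one), with overlaps counted. It was present in 20 of the 33 genes (60.6%), against 3.99% of all 27025 genes with such promoters. The next lines give 150 bases upstream of the start for genes that differ most in the results that follow, read 5′ to 3′ on the strand of the gene, with matches to the response element in capitals. Isg15, Ifit1 and Rsad2 were low in most cells and high in few. Slfn1 and Trim30d varied less than these with the number of other members in neutrophils. Bst2 and Phf11b were low in neutrophils and higher in mononuclear cells, though Bst2 had only 1 and 7 UMIs in NK cells (6.32 and 43.1 CPM).
Isg15: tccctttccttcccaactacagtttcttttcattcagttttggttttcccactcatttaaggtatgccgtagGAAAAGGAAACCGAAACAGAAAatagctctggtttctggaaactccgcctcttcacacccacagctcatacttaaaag
Ifit1: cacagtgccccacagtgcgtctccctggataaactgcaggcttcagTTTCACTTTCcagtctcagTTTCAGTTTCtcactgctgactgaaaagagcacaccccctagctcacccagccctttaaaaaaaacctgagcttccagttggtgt
Rsad2: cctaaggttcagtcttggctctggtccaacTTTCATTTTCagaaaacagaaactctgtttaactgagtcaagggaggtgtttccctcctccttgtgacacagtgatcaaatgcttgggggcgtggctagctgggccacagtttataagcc
Slfn1: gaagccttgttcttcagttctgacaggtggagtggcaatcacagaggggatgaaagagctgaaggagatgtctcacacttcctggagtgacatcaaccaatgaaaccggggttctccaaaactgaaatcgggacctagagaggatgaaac
Trim30d: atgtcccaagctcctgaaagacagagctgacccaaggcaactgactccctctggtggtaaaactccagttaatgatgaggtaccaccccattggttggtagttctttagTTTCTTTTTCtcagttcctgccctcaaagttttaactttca
Bst2: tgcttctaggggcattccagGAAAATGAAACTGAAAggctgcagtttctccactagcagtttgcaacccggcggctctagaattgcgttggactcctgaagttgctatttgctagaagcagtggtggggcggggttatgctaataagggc
Phf11b: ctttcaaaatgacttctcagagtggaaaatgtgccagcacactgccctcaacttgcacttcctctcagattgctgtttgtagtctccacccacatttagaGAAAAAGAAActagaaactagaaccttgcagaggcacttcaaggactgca
The stretches lie at chr4:156200819-156200968 (minus strand), chr19:34640739-34640888 (plus strand), chr12:26456453-26456602 (minus strand), chr11:83116670-83116819 (plus strand), chr7:104507850-104507999 (minus strand), chr8:71537473-71537622 (minus strand) and chr14:59341331-59341480 (minus strand). Isg15 carried 3 overlapping matches in 1 run, Ifit1 carried 2 separate ones, and Bst2 carried 2 that overlap. Rsad2, Trim30d and Phf11b had 1 match each, and Slfn1 had none in this window. A match is a description of letters and not evidence of binding.

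**Figure D1:**
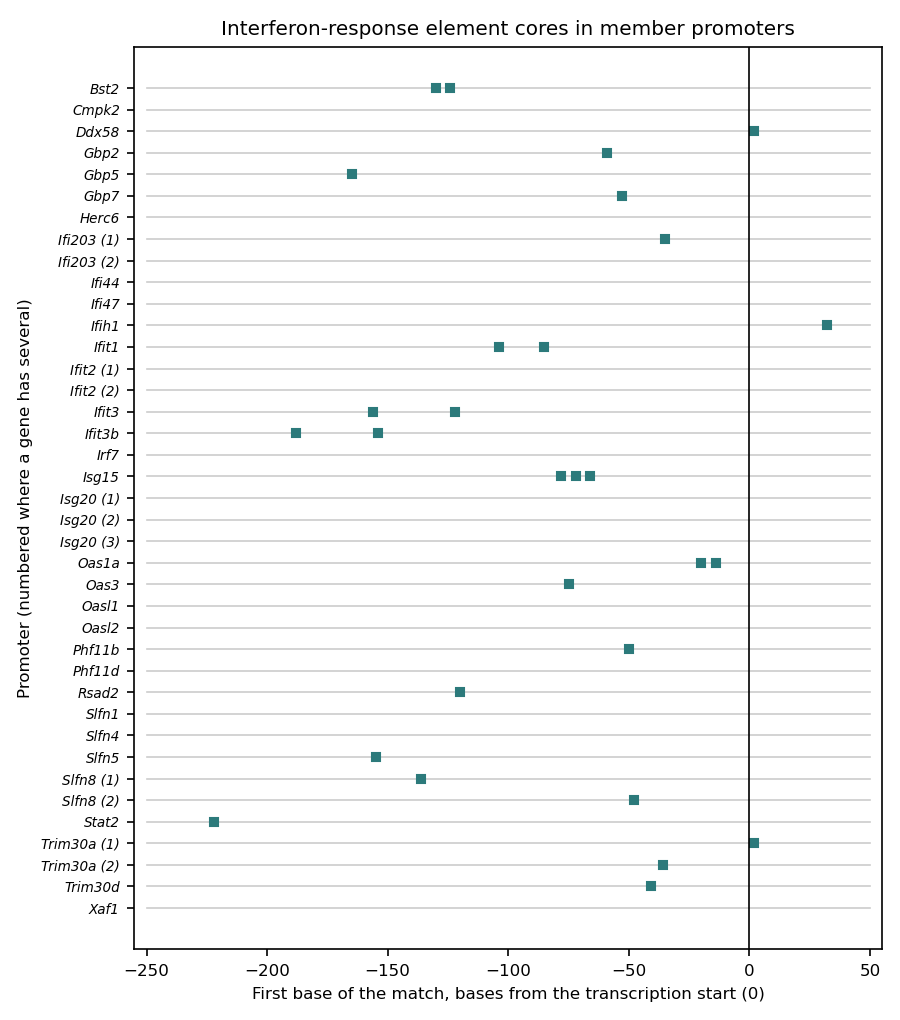
Positions of interferon-response element cores (squares) along member promoters; the x axis gives bases from the transcription start at 0 and each grey line is 1 promoter from 250 bases upstream to 50 bases downstream. Of the 33 genes, 20 hold a match, and genes with several promoters have numbered lines.

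The number of genes with the element was also set beside the expression groups described below. It was present in 9 of 14 genes that were higher in neutrophils than in monocytes, in 4 of 7 that were higher in monocytes, and in 6 of 9 that were neither. Among genes concentrated at least 3-fold in neutrophils rich in other ISGs, 5 of 6 had a match, and among those under 2-fold 5 of 7. The element's share was thus of similar size in each group, over small numbers of genes.

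The sum over the members was of a similar order in the large labels. In neutrophils all members together stood at 1857 and 1371 CPM, in monocytes at 1416 and 1298, and in dendritic cells at 1888 and 1233. NK cells had 942 and 1275 CPM and B cells 1238 and 1128. The make-up of these sums differed between labels. In neutrophils Slfn1 gave 23.5% and 27.1% of the member UMIs and Ifi27l2a 16.2% and 10.97%. In monocytes Ifi27l2a gave 44.3% and 37.7% and Slfn1 5.84% and 8.22%. In dendritic cells Ifi27l2a gave 20% and 22.6% and Bst2 12.8% and 20.9%. Slfn1 encodes a Schlafen protein linked to immune cell quiescence, and Ifi27l2a a small interferon-induced protein.

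Each of the 38 measured members had its highest CPM in 1 of 5 labels, both libraries summed. Neutrophils were highest for 15, against 10.8% of all 9721 genes so compared, and each of these 15 had at least 20 UMIs there. For some of them the next label had few UMIs, so their order is not set. Oasl1 stood at 5.71 CPM against 5.26 in dendritic cells on 6 UMIs, and Ifit1 at 10.9 against 6.24 in NK cells on 2 UMIs. Dendritic cells were highest for 10 (19.2% of all genes), of which 5 had at least 20 UMIs there: Bst2, Phf11b, Irf7, Slfn5 and Oas1a. Without 1 young dendritic cell described below, Irf7, Oas1a, Ifit3, Ifit3b and Phf11d were no longer highest there and 5 members were. Irf7 then stood at 35.4 CPM against 40.6 in NK cells and Oas1a at 12.4 against 13.6 in monocytes. NK cells were highest for 9 (32.5%), of which Ifi203, Ifi47 and Gbp7 had at least 20 UMIs. Monocytes were highest for 3 (17.7%), namely Ifi27l2a, Ifi204 and Zbp1, all well counted. B cells were highest for Parp14 alone (19.8% of all genes), on 11 UMIs, of which 4 came from 1 young cell without which NK cells were higher. The shares of all genes show that the small labels often take the first place, whereas neutrophils rarely do.

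**Figure D2:**
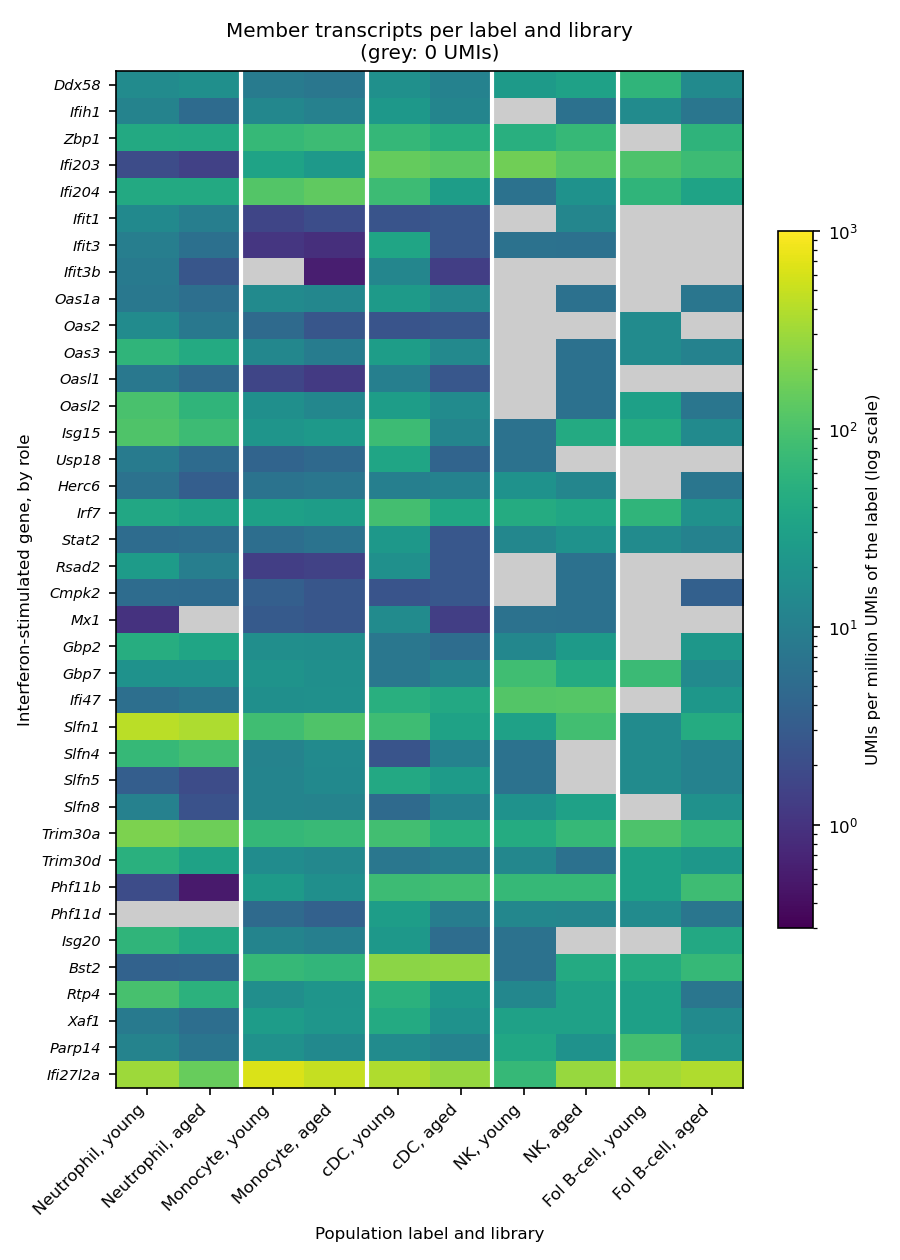
Level of each measured member (rows, ordered by role) in 5 population labels, young and aged side by side (columns), in CPM on a logarithmic colour scale, with grey for 0 UMIs. Slfn1, Ifi27l2a and Trim30a are bright in neutrophils, while Ifi203, Phf11b and Bst2 are dark there and brighter in every other label.

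Monocytes and neutrophils held the most UMIs and were compared gene by gene. Of the 38 members, 10 were at least 2-fold higher in monocytes in both libraries and 16 were at least 2-fold lower, and 12 were neither. Among all 9882 genes, 50.5% were at least 2-fold higher in monocytes and 7.07% at least 2-fold lower. The median log2 ratio of members was -0.47 for young and -0.20 for aged cells, against 1.16 and 1.54 over all genes. The members' median thus lay below that of all genes in both libraries. These counts depend on the scale. S100a8, S100a9 and Retnlg took 33.0% and 41.6% of all neutrophil UMIs. TMM scaling, which sets the bulk of genes equal, shifted every log2 ratio by -1.001 and -1.31. It left all 16 neutrophil calls and 3 of the 10 monocyte calls (Ifi203, Phf11b and Bst2), and turned the direction of none. Monocytes held more UMIs per cell, and on UMIs per cell 19 members were at least 2-fold higher in monocytes and only Ifit3 and Rsad2 at least 2-fold lower. On that scale Isg15, Rtp4, Oas2, Gbp2, Trim30a and Trim30d turned to the monocyte side in at least 1 library.

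**Figure D3:**
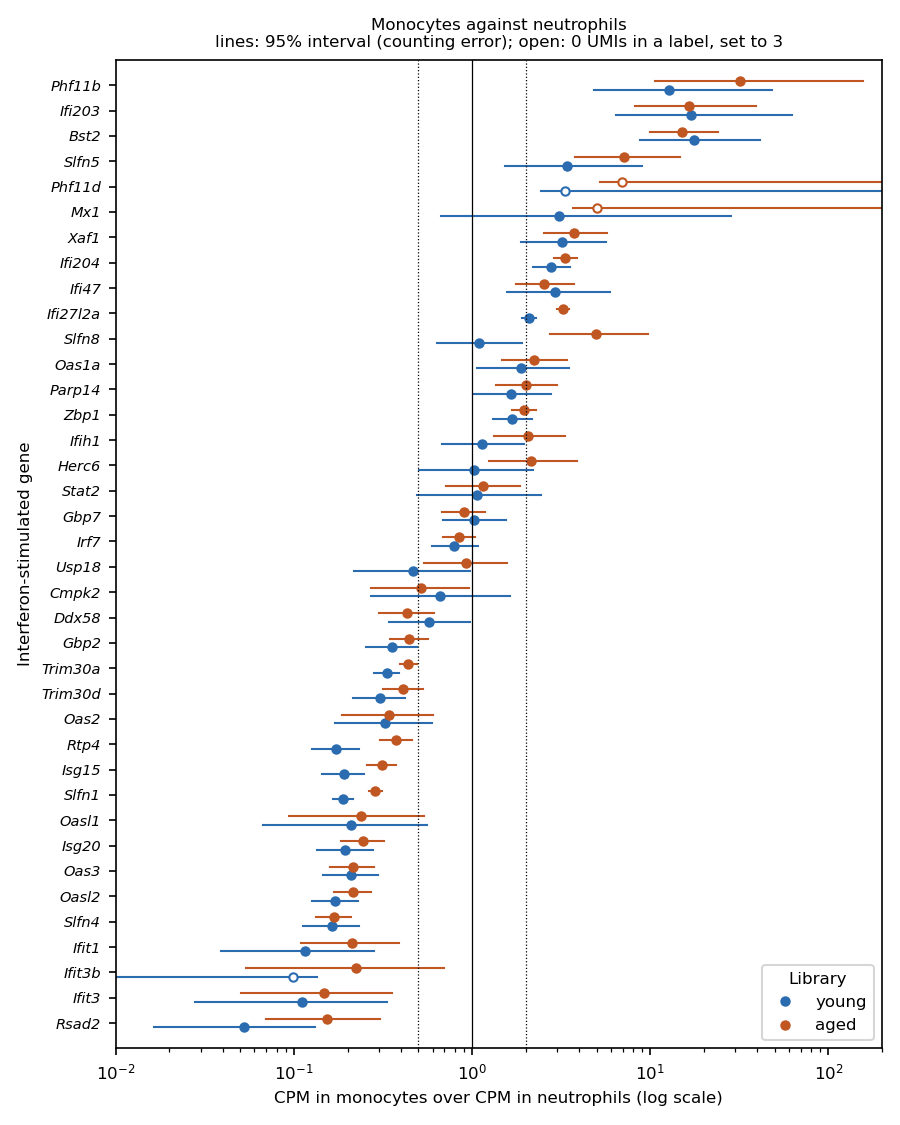
Ratio of CPM in monocytes to CPM in neutrophils for each measured member on a logarithmic axis, young and aged as separate points with 95% counting intervals; open points have 0 UMIs in a label, set to 3, and dotted lines mark 2-fold. The 16 members at the bottom lie left of the lower dotted line in both libraries and the 10 at the top right of the upper one.

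The viperin and Ifit genes were among those with a low monocyte level relative to neutrophils. Rsad2 encodes viperin, an antiviral enzyme that makes a chain-terminating nucleotide, and stood at 25.8 (19.3 to 33.7) CPM (young) and 9.57 (7.19 to 12.5) CPM (aged) in neutrophils. In monocytes it was at 1.36 and 1.48 CPM, on 5 and 10 UMIs, a level at which free neutrophil RNA cannot be told apart from the cells' own. The monocyte level was 0.0526 and 0.154 of the neutrophil level, and Rsad2 stayed lower per cell as well. Its neighbour Cmpk2, a mitochondrial nucleotide kinase gene, differed by less, with 5.35 and 5.14 CPM in neutrophils and 3.52 and 2.66 in monocytes. Ifit1, which binds viral RNA that lacks the host cap, stood at 14.1 (9.45 to 20.3) CPM (young) and 9.75 (7.34 to 12.7) CPM (aged) in neutrophils. In monocytes it had 1.63 and 2.07 CPM, a ratio of 0.115 (0.0391 to 0.283) and 0.212 (0.109 to 0.387). With cells thinned to 500 UMIs, Ifit1, Ifit3 and Ifit3b were no longer 2-fold lower in both libraries, and Ifit3b turned in at least 1. Ifit3, a partner of Ifit1, had 9.73 and 6.02 CPM in neutrophils and 1.08 and 0.886 in monocytes. Its close copy Ifit3b had 8.27 and 2.66 and, in monocytes, 0 and 4 UMIs. These genes were near the limit of detection in monocytes, while neutrophils held them at a low but counted level. Ifit2 had 14 UMIs in the whole table, no more than 6 in a label, and was not followed further.

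The active enzymes among the oligoadenylate synthetases make the messenger that activates RNase L. In CPM Oasl2, Oas3, Oas2 and Oasl1 were lower in monocytes, whereas per cell none of the 4 kept a 2-fold difference in both libraries and Oas2 turned, and with thinning to 500 UMIs Oas2 and Oasl1 fell short of 2-fold. Oasl2 stood at 98.3 (85.2 to 113) CPM (young) and 60.1 (53.8 to 66.8) CPM (aged) in neutrophils against 16.8 and 12.9 in monocytes. Oas3 had 60.8 and 42.9 CPM in neutrophils and 12.7 and 9.16 in monocytes. Oas1a was different, with 7.78 and 5.85 CPM in neutrophils, 14.6 and 13.001 in monocytes and 25.01 and 13.5 in dendritic cells, where 1 young cell gave 6 of 10 UMIs and the young level was 10.3 without it. Oas1a was thus placed toward monocytes in CPM and per cell but not under TMM scaling, which turned it.

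Isg15 encodes the ubiquitin-like protein of the response and is among its most inducible genes. It stood at 108 (94.7 to 124) CPM (young) and 78.5 (71.4 to 86.2) CPM (aged) in neutrophils and at 20.6 (16.2 to 25.8) and 24.4 (20.8 to 28.4) CPM in monocytes. The monocyte level was 0.190 and 0.311 of the neutrophil level. Per 100 neutrophils there were 19.5 and 16.5 Isg15 UMIs, and per 100 monocytes 13.8 and 16.6, so the order held per cell for young cells and the values were nearly the same for aged ones. After thinning each cell to 1000 UMIs, 8.92% and 6.42% of neutrophils had an Isg15 UMI, against 1.27% and 2.42% of monocytes. Without thinning the shares were 12.3% and 11.2% in neutrophils and 11.8% and 12.8% in monocytes. In thinned NK and B cells together the share was 1.15% and 4.81%, so that the thinned monocyte share did not stand above theirs beyond counting error. Usp18, the protease that removes ISG15 and restrains the receptor, had 8.76 and 5.14 CPM in neutrophils and 4.07 and 4.73 in monocytes. Herc6, the mouse ligase for ISG15, had 6.32 and 3.37 CPM in neutrophils and 6.51 and 7.24 CPM in monocytes. Neither was past 2-fold in both libraries.

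Among the factors that carry the signal, Irf7, the amplifier of interferon production, was at a like level in both labels. It stood at 38.4 and 32.2 CPM in neutrophils and 30.6 and 27.2 in monocytes, with 87.5 and 37.8 in dendritic cells, and under TMM scaling it counted among the members lower in monocytes. Stat2, a subunit of ISGF3, was low in each, at 5.35 and 5.67 CPM in neutrophils and 5.69 and 6.5003 CPM in monocytes. The ratios for Irf7 were 0.797 (0.593 to 1.08) and 0.843 (0.683 to 1.04), both with intervals that include 1.

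The sensors of nucleic acid were mostly on the monocyte side in CPM, except Ddx58, though Zbp1 and Ifih1 turned under TMM scaling. Ifi204, a cytosolic DNA sensor of the PYHIN family, stood at 41.4 (33.03 to 51.1) CPM (young) and 40.8 (35.7 to 46.4) CPM (aged) in neutrophils and at 114 (104 to 126) and 136 (128 to 145) CPM in monocytes. Its relative Ifi203 was at 1.95 and 1.42 CPM in neutrophils, on 4 and 8 UMIs, and at 32.8 and 23.5 in monocytes. The ratios of Ifi203, 16.9 and 16.6, were among the 3 largest and passed 2-fold under every scaling tried, while Ifi204 fell short of 2-fold under TMM scaling. Zbp1, which senses left-handed nucleic acid and starts cell death, had 40.9 and 40.2 CPM in neutrophils and 68.6 and 78.7 in monocytes. Ifih1, the sensor MDA5, had 11.2 and 5.14 CPM in neutrophils and 12.7 and 10.6 CPM in monocytes. Ddx58, the sensor RIG-I, had 15.1 and 17.2 CPM in neutrophils and 8.67 and 7.39 CPM in monocytes, with the monocyte level at 0.575 and 0.430 of the neutrophil level in CPM but higher per cell.

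The Schlafen genes divided between the labels. Slfn1 (chr11:83116849-83122670) was the member with the most neutrophil UMIs, at 437 (409 to 466) CPM (young) and 372 (356 to 388) CPM (aged) in neutrophils and 82.7 and 107 CPM in monocytes. Slfn4, also on chromosome 11, had 69.6 and 85.2 CPM in neutrophils and 11.4 and 14.3 in monocytes. Slfn5 had 3.41 and 1.95 CPM in neutrophils but 11.7 and 13.9 in monocytes and 40.01 and 25.7 in dendritic cells. Slfn8 had 10.7 and 2.30 in neutrophils and 11.7 and 11.4 in monocytes, near-equal in the young and 4.94 in ratio in the aged library. Slfn1 and Slfn4 were thus on the neutrophil side in CPM and under TMM scaling, though not 2-fold in both libraries per cell, and Slfn5 on the monocyte side. A share of 33.9% and 30.03% of neutrophils thinned to 1000 UMIs held Slfn1 (49.1% and 50.4% unthinned), against 8.70% and 10.5% of thinned monocytes. In thinned NK and B cells together, at median depths of 2079 and 2847 UMIs, the share was 2.30% and 5.77%.

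Trim30a, whose product restrains Toll-like receptor signalling, and its copy Trim30d followed the pattern of Slfn1 in CPM, but both turned to the monocyte side per cell in at least 1 library. Trim30a stood at 199 (181 to 219.7) CPM (young) and 168 (157 to 179) CPM (aged) in neutrophils and 66.1 and 73.7 CPM in monocytes. Trim30d had 51.1 and 32.4 CPM in neutrophils and 15.5 and 13.3 CPM in monocytes. Of the GTPases, Gbp2, which coats intracellular pathogens, had 46.7 and 35.6 CPM in neutrophils and 16.5 and 15.8 in monocytes, and turned per cell too. Gbp2, Trim30a and Trim30d fell short of 2-fold without ribosomal and mitochondrial genes in the total, and Gbp2 and Trim30a also after thinning to 500 UMIs. Gbp7 was level between them at 18.97 and 18.8 CPM in neutrophils and 19.5 and 16.8 CPM in monocytes. Ifi47, an immunity-related GTPase, was lower in neutrophils at 5.84 and 6.91 CPM than in monocytes at 17.1 and 17.6, and under TMM scaling the difference was below 2-fold. Mx1, an antiviral GTPase, had 2 neutrophil UMIs and 29 in monocytes. Gbp5 had 6 UMIs in all and was not followed, and Mx2 and Ifi44 were not analysed here.

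Of the remaining effectors, Bst2 and Phf11b stood on the monocyte side on every scale tried and Rtp4 and Isg20 on the neutrophil side in CPM. Bst2 encodes tetherin and was at 3.89 (1.68 to 7.67) CPM (young) and 4.08 (2.58 to 6.12) CPM (aged) in neutrophils, against 68.3 (60.1 to 77.3) and 61.8 (55.97 to 67.97) CPM in monocytes. The ratio was 17.6 (8.77 to 41.1) and 15.2 (9.96 to 24.2). Phf11b had 1.95 and 0.532 CPM in neutrophils, on 4 and 3 UMIs, and 24.9 and 16.99 in monocytes. Its relative Phf11d had 0 neutrophil UMIs in either library. Against a floor of 3 UMIs monocytes were 3.34-fold and 6.95-fold higher, while the counting intervals of the ratio began at 2.45 and 5.24. These genes were close to absent in neutrophils at this depth. Isg20, an exonuclease gene, had 59.8 and 40.6 CPM in neutrophils and 11.7 and 9.90 in monocytes. Rtp4, a chaperone gene induced by interferon, had 94.4 and 55.1 CPM in neutrophils and 16.3 and 20.7 CPM in monocytes, and turned per cell. Xaf1, which favours apoptosis, had 8.27 and 5.67 CPM in neutrophils and 26.3 and 21.3 CPM in monocytes. Ifi27l2a was at 302 (278 to 326) CPM (young) and 150.4 (140.5 to 161) CPM (aged) in neutrophils and 627 and 489.6 in monocytes, a ratio of 2.08 and 3.25 that fell below 2-fold under TMM scaling. Parp14, an ADP-ribosyl transferase gene, had 11.2 and 6.91 CPM in neutrophils and 18.4 and 13.9 CPM in monocytes. Reads of close copies (Ifit3 and Ifit3b, Trim30a and Trim30d, Phf11b and Phf11d, Ifi203 and Ifi204, the Schlafen genes) may be split or lost in counting, so the values of single copies are uncertain.

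Some members stood out in the smaller labels. In dendritic cells 17 members had at least 20 UMIs, with the most for Ifi27l2a, at 378 and 278 CPM. Bst2 stood there at 243 (197 to 296) and 258 (223 to 297) CPM, above 68.3 and 61.8 in monocytes and 44.7 and 69.6 in B cells, with intervals apart. It was found in 18.9% and 23.4% of thinned dendritic cells (67.9% and 61.7% unthinned) and in 0.437% and 0.373% of thinned neutrophils. Phf11b was at 77.5 and 82.4 CPM in dendritic cells, 69.6 and 67.8 in NK cells and 29.8 and 80.6 in B cells. Ifi203 was at 171 (113 to 248) and 117 (70.5 to 183) CPM in NK cells, 145 and 124 in dendritic cells and 104 and 76.9 in B cells. The Ifi203 intervals of these 3 labels overlapped, so their order is not set, and all 3 lay above monocytes. Ifi47 was highest in NK cells, at 114 (67.5 to 179.9) and 117 (70.5 to 183) CPM against 50.01 (30.5 to 77.2) and 40.5 (27.3 to 57.9) CPM in dendritic cells, with intervals that overlap for young cells. Bst2, Phf11b, Ifi203 and Ifi47 were thus all higher in dendritic cells than in monocytes or neutrophils.

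B cells had 5 members with at least 20 UMIs, led by Ifi27l2a at 328 and 381 CPM, with Trim30a at 104 and 65.9. In mast cells Ifi27l2a was the only such member, with 27 UMIs (258 CPM), of which 26 lay in 2 of the 44 cells. In the Eryth-Neutro cells Isg20 was the only one, at 281 and 236 CPM on 20 and 14 UMIs in 8 and 6 cells. With globin transcripts left out of the total it stood at 2405 (1469 to 3714) and 681 (372 to 1142) CPM, above the neutrophil level. No other member reached 20 UMIs in these cells.

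Single cells carried part of the dendritic, NK and B cell values. A young dendritic cell had 34 distinct members, against 14 in the next one, and its 233 member UMIs were 30.9% of those of the label. It held 11500 UMIs, was not among the highest doublet scores, and had 441 UMIs of dendritic markers and 4 of plasmacytoid markers. It gave 25 of the 31 Isg15 UMIs, 23 of 35 Irf7 UMIs, 13 of 14 Ifit3 UMIs and all 11 Phf11d UMIs of young dendritic cells. Without it Isg15 was at 15.4 instead of 77.5 CPM, Irf7 at 30.9 instead of 87.5, and Bst2 at 219 instead of 243. The Bst2 level of dendritic cells therefore did not rest on this cell, while the Isg15 level did. In aged NK cells 36 of 46 Ifi27l2a UMIs came from 2 cells. The 1 aged NK cell with most members, 20, was among the highest doublet scores and had 51 UMIs of monocyte markers. In young B cells 1 of the 14 cells, with 15 distinct members, gave 30.1% of the member UMIs, and without it the member sum was 984 instead of 1238 CPM. That cell had 24 UMIs of B cell markers, 92 of dendritic and 17 of plasmacytoid markers, among 8144 UMIs. All 14 young B cells together held 256, 1001 and 120 UMIs of these lists, among 67066 UMIs.

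Whether a member was basal, that is, spread over the cells of a label, or held by few cells that carry many ISGs, was measured cell by cell. Each cell was thinned to 1000 UMIs. For each member the share of its UMIs in cells with at least 3 other members was divided by the share of such cells, and the result is called its concentration. A value of 1 means no link with other members. In neutrophils 27 members had at least 20 thinned UMIs, with a median concentration of 2.55, against 1.05 over 5301 other genes. Of the members, 9 were below 2-fold, 16 lay between and 2 were at 5-fold or more. Among the other genes 1.51% reached 2-fold and 0% reached 5-fold.

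The 9 members below 2-fold in neutrophils, called spread here, were Trim30a, Gbp2, Slfn1, Gbp7, Parp14, Trim30d, Ddx58, Zbp1 and Slfn4. The word refers to a weak link with other members and not to presence in many cells. Slfn1 was found in 31.2% of thinned neutrophils and Trim30a in 16.1%. Trim30d and Gbp2 were found in 3.84% each, Ddx58 and Gbp7 in 2.04% each and Parp14 in 0.863%. Their concentrations ran from 1.44 to 1.97. The line at 2-fold is not sharp. Oas3, at 2.04, had 24.3% of its UMIs in cells without other members, more than Zbp1 with 18%. With another random thinning 8 of the 9 stayed below 2-fold and Parp14 was at 2.12. Slfn1 was present at every number of other members in the cell. It stood at 337 CPM in neutrophils with no other member, 399 with 1 to 2, 569 with 3 to 5 and 849 with at least 6. The ratio of the last to the first was 2.52 (1.91 to 3.28), small beside those of Ifit1 and Isg15 below. Trim30a went from 154 to 420.3 CPM and Gbp2 from 32.9 to 92.9. Neutrophils without any other member held 39.2% (36.8% to 41.7%) of the Slfn1 UMIs and were 43.7% of the cells. For Trim30a these shares were 30.8% (27.4% to 34.4%) and 36%, and for Gbp2 28.1% (21.3% to 35.8%) and 32.1%. Each share of UMIs was below the share of cells, for Slfn1 and Trim30a with intervals that exclude it. The difference was wider for Zbp1, with 18% (12.2% to 25.1%) of UMIs in 31.6% of cells, and for Trim30d, with 21.8% (15.6% to 29.1%) in 31.8%. From no to at least 6 other members, Ddx58 climbed by a ratio of 6.48 (2.59 to 14.3), Zbp1 by 5.20 (2.56 to 9.72) and Slfn4 by 4.96 (3.20 to 7.41), so the spread members varied with the others too.

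Ifit1 and Ifit3 were at the other end, with concentrations of 5.54 and 5.02, followed by Rsad2 at 4.69, Ifi47 at 3.84, Usp18 at 3.70 and Isg15 at 3.59. Ifit1 stood at 2.03 CPM in neutrophils with no other member, 4.49 with 1 to 2, 21.8 with 3 to 5 and 428 with at least 6, a ratio of 211 (83.1 to 683). Neutrophils without other members, 30.95% of cells, held 2.04% (0.0517% to 10.9%) of its UMIs. Isg15 was intermediate, since it was present in cells without other members, at 33.3 CPM, and reached 1416 with at least 6, a ratio of 42.5 (31.4 to 57.5). Cells without other members held 13.7% (10.4% to 17.6%) of Isg15 UMIs. Rsad2 went from 2.44 to 324 CPM. Rtp4, Ifi27l2a and Isg20 lay between, with concentrations of 3.06, 2.58 and 2.27. The concentrations in the young and aged cells taken apart were 4.88 and 5.55 for Ifit1, 3.43 and 3.48 for Isg15 and 1.40 and 1.48 for Slfn1. The order of these 3 was the same in both libraries.

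**Figure D4:**
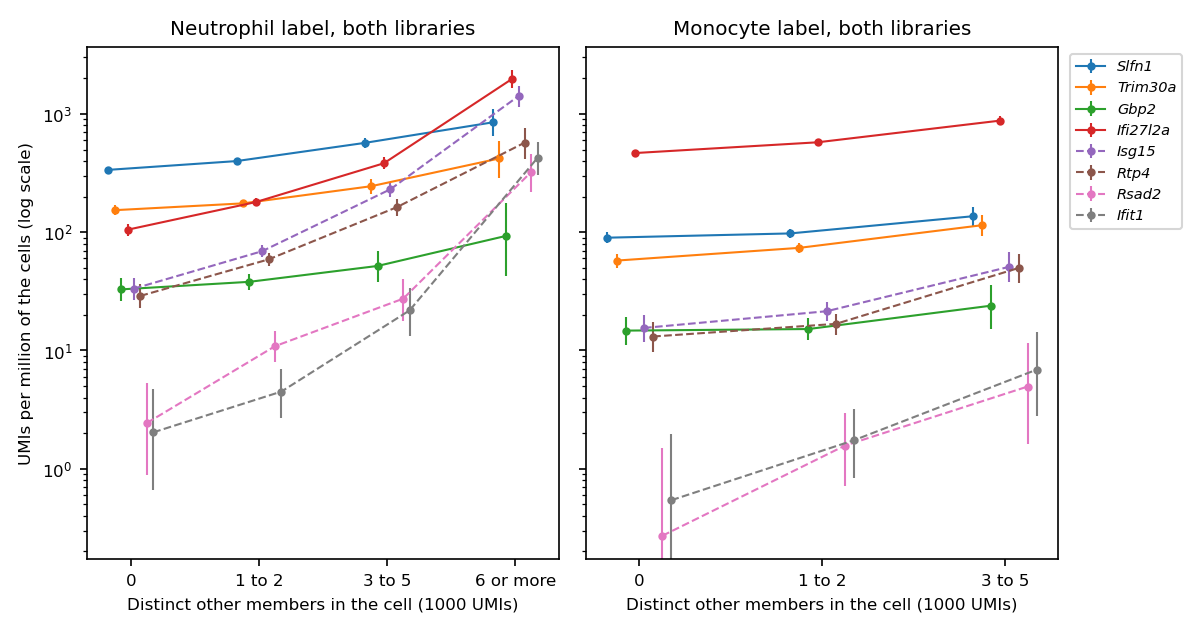
Level of 8 members (CPM, logarithmic axis, bars are 95% counting intervals) in neutrophils and monocytes grouped by the number of distinct other members found in the cell after thinning to 1000 UMIs. In neutrophils Slfn1, Trim30a and Gbp2 climb least, while Ifit1, Rsad2 and Isg15 climb steeply.

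Monocytes had a lower yield of this measure. Only 22 members had enough thinned UMIs, with a median of 32.5 UMIs per member against 128 in neutrophils. Their median concentration was 2.03, against 0.98 over 5563 other genes, of which 1.98% reached 2-fold and 0% reached 5-fold. No member reached 5-fold. With another random thinning 11 of the 22 values moved by over 1.5 times, the median became 1.68 and the members below 2-fold went from 11 to 16, so single monocyte values below are limited by depth. Ifi27l2a stood at 467 CPM in monocytes with no other member, 576 with 1 to 2 and 878 with 3 to 5. Monocytes without other members held 42.4% (39.04% to 45.7%) of its UMIs and were 48.7% of the cells. For Ifi204 these shares were 30.8% (24.5% to 37.7%) and 37.6%, and for Bst2 24.2% (15.8% to 34.3%) and 35.3%. Slfn1, at a lower level than in neutrophils, went from 89.9 to 136 CPM with 3 to 5 other members. Isg15 went from 15.5 to 51.1 and Rtp4 from 13.1 to 49.8. Ifi27l2a, Ifi204 and Bst2 were thus present in monocytes in which no other member was detected after thinning. Unthinned monocytes held 9.46 (young) and 8.85 (aged) member UMIs per cell. Thinning removed most of these, so the grouping does not show that such monocytes lacked other members. In thinned dendritic cells Bst2 was spread too, with 51.1% (36.1% to 65.9%) of its UMIs in cells without other members, which were 51.9% of the label. The same limit holds there, with 14.2 and 8.53 member UMIs per unthinned cell.

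Neutrophils with at least 6 distinct members made up 2.53% of young neutrophils, 29 of 1144, with an exact binomial interval from 1.70% to 3.62%. Among aged neutrophils the share was 0.932%, 25 of 2681, with limits of 0.604% and 1.37%. They were chosen by their members, so their member level of 11661 and 9173 CPM, against 1611 and 1305 in the other neutrophils, is a description. They gave 15.3% and 5.68% of the member UMIs of neutrophils. There were 25 and 35 cells with exactly 5 members and 10 and 14 with exactly 6, so the number 6 marks no gap. Their median depth was 1731 and 1814 UMIs against 1635 and 1914.5 in the rest, and 0 of them were among the highest doublet scores. Monocyte markers summed to 1017 and 834 CPM in them and to 995 and 1068 in the rest. Plasmacytoid markers were at 0 and 20.8 CPM against 18.0 and 13.6. Neutrophil markers summed to 274483 and 370031 CPM in them, below 334362 and 420050 in the rest. The part of these differences in the member levels was not tested. Among monocytes only 1 young and 4 aged cells had at least 6 members. Neutrophils with no member at this depth were 25.8% and 33.1%.

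Other genes in neutrophils with at least 3 members were ranked by the same measure, over 3231 genes with at least 50 thinned UMIs. The first were Emc6 at 2.33, Epsti1 at 2.29 and Ifi35 at 2.16. Eif2ak3 at 2.03, Thoc7 at 2.02 and 5 further genes came before Ddx60, at 1.94 and rank 11. Among the 12 genes ranked highest, Epsti1, Ifi35 and Ddx60 are known interferon-stimulated genes outside the list. In monocytes, over 2970 genes, Fam134a led at 2.26 and Nfic followed at 2.22, with the receptor gene Ifnar1 at 2.07 and the PYHIN gene Mndal at 1.99 further down. These values rest on few UMIs and describe the order only.

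The aged library was set against the young one within each label. In neutrophils, 33 members reached 20 UMIs. Of these 0 stood at least 1.5-fold higher, as 5.96% of 6579 genes did, and 14 stood at least 1.5-fold lower, as 24.4% of genes did. The median log2 ratio was -0.53, against -0.25 over all genes. Of the 33, 28 were below 1 in CPM, 21 with TMM scaling and 24 per cell, and in CPM for 15 the counting interval lay wholly below 1. The abundant neutrophil transcripts S100a8, S100a9 and Retnlg had a larger share of the aged total (41.6% against 33.0%). With these left out 7 members were at least 1.5-fold lower instead of 14. TMM scaling, which shifts the log2 ratio by 0.31, gave 7 lower and 1 higher, and UMIs per cell gave 7 lower.

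The lowest ratio was that of Slfn8, at 0.215 (0.0996 to 0.447), followed by Ifit3b at 0.321 (0.149 to 0.684). Rsad2 had 25.8 and 9.57 CPM and a ratio of 0.371 (0.249 to 0.553), and Ifi27l2a 302 and 150.4 CPM and a ratio of 0.499 (0.449 to 0.554). Rtp4 had a ratio of 0.584 (0.486 to 0.702), Oasl2 of 0.611 (0.512 to 0.731) and Ifit3 of 0.619 (0.346 to 1.14). Isg15 was nearer to 1, at 0.723 (0.615 to 0.854). Among the members called spread in neutrophils, Slfn1 was at 0.851 (0.787 to 0.921), Trim30a at 0.841 (0.748 to 0.947) and Gbp2 at 0.763 (0.595 to 0.983) in CPM. TMM scaling gave 1.05, 1.04 and 0.945 and turned Slfn1 and Trim30a. Of the other spread members, Trim30d at 0.635 (0.497 to 0.815) and Parp14 at 0.618 (0.360 to 1.08) lay further from 1 than Isg15, and Ddx58, Zbp1 and Gbp7 at 1.14, 0.984 and 0.990 lay nearer. Slfn4 was on the other side of 1 on each scale, in CPM at 1.23 (1.014 to 1.49). In neutrophils with fewer than 3 other members, 8 of 31 members were at least 1.5-fold lower (23.7% of all 6332 genes in cells with fewer than 3 members) and 3 higher (6.4%), with a median log2 ratio of -0.21 against -0.24 over all genes. In those with at least 3, 13 of 26 were lower (25.8% of 2827 genes) and 0 higher (7.32%), with a median of -0.56 against -0.25. The groups were formed by the members' own counts, and the upper one has no upper limit. Cells with at least 6 members were 29 of 213 young and 25 of 325 aged neutrophils with at least 3. The make-up of the upper group thus differed between libraries. The median over all genes is no like comparison for members, whose counts formed the groups. Whether these groups of cells differ in their response to age was not tested.

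**Figure D5:**
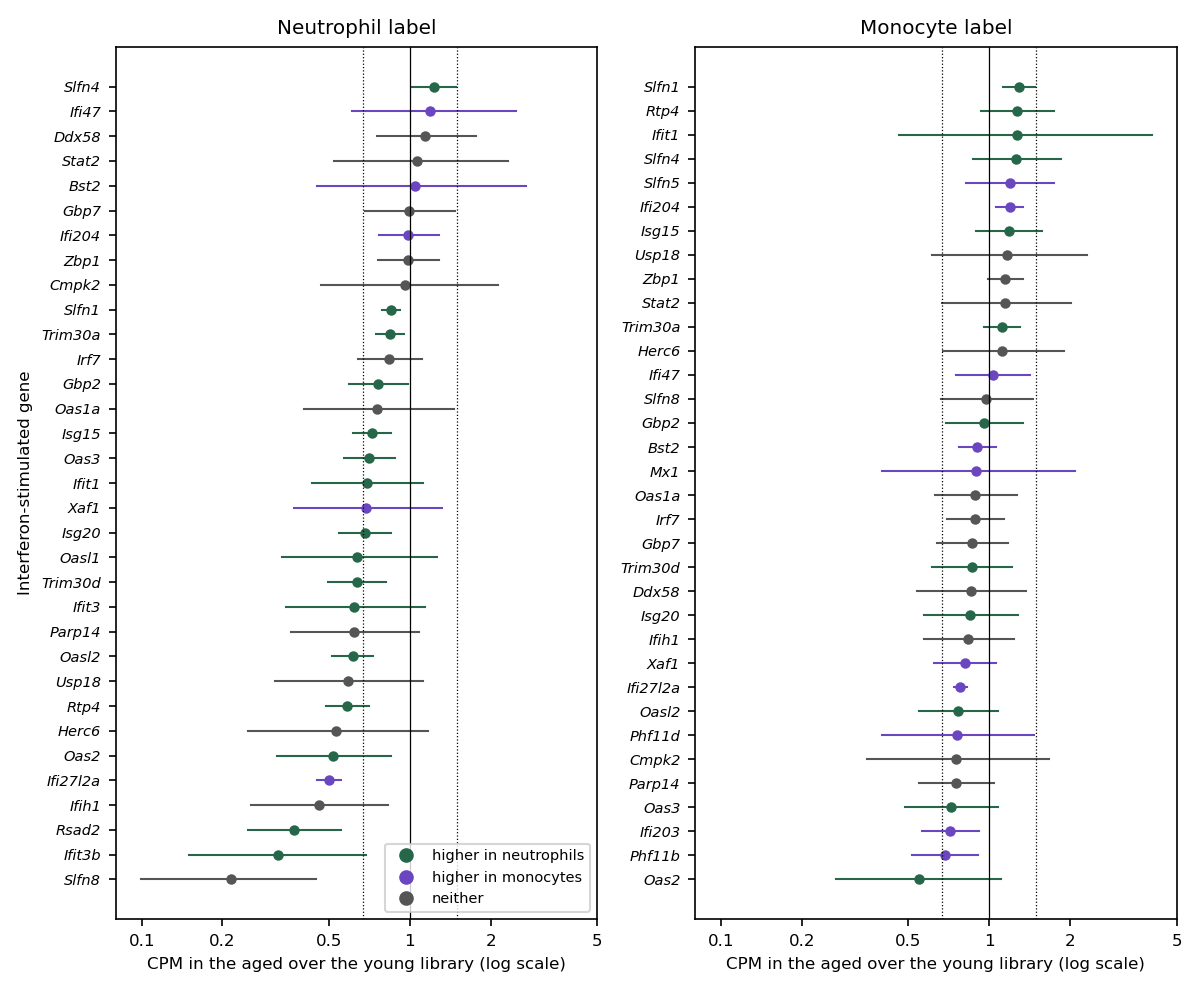
Ratio of CPM in the aged to the young library for each measured member in neutrophils (left) and monocytes (right), logarithmic axis, lines are 95% counting intervals and dotted lines mark 1.5-fold; colours give the label in which the member was higher. In neutrophils most points lie left of 1, in monocytes they lie around it.

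In monocytes the 2 libraries were closer. Of 34 members, 0 were at least 1.5-fold higher (7.27% of 9386 genes) and 1 was lower (11.3%), Oas2 at 0.545 (0.267 to 1.11), with an interval that includes 1. The median log2 ratio was -0.17, against -0.01 over all genes. The intervals lay below 1 for 3 members and above 1 for 2. Ifi27l2a had 627 and 489.6 CPM and a ratio of 0.781 (0.741 to 0.824), Ifi203 at 0.716 (0.562 to 0.915) and Phf11b at 0.681 (0.513 to 0.906). Slfn1 was on the other side at 1.29 (1.13 to 1.48) and so was Ifi204 at 1.19 (1.06 to 1.34). In neutrophils Slfn1 was thus below 1 in CPM (0.851) but near 1 per cell (0.997) and with TMM scaling (1.05). In monocytes it was above 1 on each scale. Isg15 had a monocyte ratio of 1.18 (0.896 to 1.57). Ifi27l2a was found in 15.996% and 8.91% of thinned neutrophils (22.4% and 14.4% unthinned) and 37.1% and 30.5% of thinned monocytes (73.6% and 62.7% unthinned). In thinned NK and B cells together it was found in 11.5% and 14.4%.

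In dendritic cells 11 of 17 members were at least 1.5-fold lower in the aged library (10.7% of 4865 genes) and 0 higher (14.3%), with a median log2 ratio of -0.89 against 0.06 over all genes. Without the 1 young cell with most members this became 7 of 17 and -0.27. Isg15 went from a ratio of 0.157 to 0.787, Irf7 from 0.432 to 1.22 and Zbp1 from 0.720 to 1.26. Slfn1, at 0.405 and 0.450 (0.250 to 0.805) without the cell, and Bst2, at 1.06 and 1.18, moved little. In NK cells, of 5 members, Ifi27l2a was higher at 4.07 and Gbp7 lower at 0.525 (0.177 to 1.41), where 10.1% and 18.9% of 2017 genes were. Without the aged cell with most members, which held 15 of the 46 aged Ifi27l2a UMIs, its ratio was 2.90 (1.42 to 6.40). Of these 46 UMIs 36 lay in 2 cells and only 1 cell was removed, so this ratio still rested on few cells.

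The other genes of the pathway were taken from 2 lists. Of 36 receptor, kinase, factor, sensor and ligand genes, 31 were in the table and 29 had enough UMIs. In CPM 11 were at least 2-fold higher in monocytes (50.5% of all genes), 3 in neutrophils (7.07%) and 15 neither, with TMM scaling 6 and 9 were, and per cell 25 and 1. The receptor chain Ifnar1 stood at 26.3 and 20.9 CPM in neutrophils against 29.5 and 27.8 in monocytes, and Ifnar2 at 60.8 and 54.2 CPM in neutrophils against 109.5 and 85.1 in monocytes. Irf9, a subunit of ISGF3, was at 34.1 and 26.05 CPM in neutrophils against 30.4 and 35.01 in monocytes. Ifnar1, Ifnar2 and Irf9 were thus within 2-fold between the labels in CPM. The 3 genes higher in neutrophils were Irf1, at 92.9 and 61.3 CPM in neutrophils against 27.6 and 29.8 in monocytes, the interferon lambda receptor chain Ifnlr1, at 11.7 and 9.21 CPM in neutrophils against 1.08 and 0.591 in monocytes, and the inhibitor Socs1. With age, 6 of 26 of these genes were at least 1.5-fold lower in neutrophils (24.4% of all genes) and 0 higher (5.96%), and in monocytes 1 of 27 was lower (11.3%) and 0 higher (7.27%). Ifng and Tlr3 had too few UMIs, and the type I interferon genes of the list and Tlr9 were not analysed here.

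Of 58 further ISGs, 46 were in the table and 43 had enough UMIs. In CPM monocytes were at least 2-fold higher in 16 (50.5% of all genes), neutrophils in 1 (7.07%), Ifitm1, and 26 were neither, while TMM scaling gave 11 and 9 and UMIs per cell 37 and 0. This split differs from that of the 38 members, of which 16 were on the neutrophil side, but both lists were put together by hand and the difference was not tested. With age 10 of 34 were lower (24.4% of all genes) and 1, Eif2ak2, higher (5.96%) in neutrophils. In monocytes 7 of 42 were lower (11.3%) and 5 higher (7.27%), namely Ifitm1, Ifitm2, Lgals9, Fcgr1 and Ifi30.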

How the data were processed

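Raw UMI counts per gene and cell were deposited by the authors in 1 table with a population label for each cell. Per the labels, blood cells were sorted and libraries made with the 10x 3′ kit, version v2. Per the submitters' processing notes, Cell Ranger 2.1.1 and genome mm10 were used. Filters on cells, pooling of mice and the mix of sorted fractions were not given in sources used here. Columns of other samples numbered 0.

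Counts were summed per label and library and divided by the label's total (CPM), with exact Poisson intervals, exact conditional binomial intervals for ratios and Clopper-Pearson intervals for shares, at 95%. Counts of 0 were set to a floor of 3 UMIs for ratios. Members needed 20 UMIs in the label or labels compared. No test was made, because each age had 1 library. Cells were thinned to 1000 UMIs without replacement (the lowest cell had 1260). Doublets stayed in, and removal of the highest scrublet scores, 8 per 1000 cells for each 1000 cells, was an alternative. Every member may be named; other genes came from listed pathway genes or the ranking of 12 per label. The members and lists were chosen with earlier results of these data known. Interval code was checked on simulated data. Promoters came from RefSeq, gene positions from GENCODE. Tools were Python 3.11.15, numpy 2.4.6, scipy 1.17.1, pandas 2.3.3, scanpy 1.11.5, matplotlib 3.10.9, R 4.3.3 and edgeR 4.0.16, the last for TMM factors only.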

Additional observations from a re-analysis of the deposited data

How the results depend on the processing

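Of 82 recomputed values, 46 kept their direction and stayed within 1.5 times a count or inside the counting interval, 32 moved and 4 reversed. Where no reason is named, the cause was not tested. TMM scaling gave 3 members higher in monocytes instead of 10, and UMIs per cell 19. Members lower in monocytes numbered 16, 10 after thinning to 500 UMIs and 2 per cell. Thinning kept 9 of the 16, lost Ifit1, Ifit3, Ifit3b, Oas2, Oasl1, Gbp2 and Trim30a and turned Ifit3b, and leaving out ribosomal and mitochondrial genes kept 13, without Gbp2, Trim30a and Trim30d. The summed member level, monocytes over neutrophils, was 0.763 for young and 0.946 for aged cells. Without ribosomal and mitochondrial genes in the total it was 1.008 (0.967 to 1.05) and 1.22. The young value counts among the 4 reversed, though its interval includes 1. Per cell the summed level reversed to 2.84 and 3.06. It was 0.381 and 0.381 with TMM, 0.524 and 0.574 without S100a8, S100a9 and Retnlg, and 0.507 and 0.662 without Ifi27l2a. Thinning to 500 UMIs gave 0.988 in the aged library. Members higher in aged neutrophils went from 0 to 1 with TMM and 2 after thinning. Those lower went from 14 to 7 with TMM, to 7 without the 3 neutrophil genes, to 7 per cell and to 9 with a minimum of 50 UMIs, which tests fewer genes. In aged monocytes 1 member was higher with doublets removed and 7 after thinning, instead of 0. Lower ones went from 1 to 3 with doublets removed, 2 without ribosomal and mitochondrial genes, 7 after thinning and 0 with the minimum of 50. Members at 5-fold concentration in neutrophils went from 2 to 4 with 500 UMIs, and to 0, 7 and 15 when 2, 4 or 6 other members were required. In monocytes they went from 0 to 1 with 500 UMIs, 1 with doublets removed, and 3 and 7 at 4 and 6 other members. Members lower in aged dendritic cells went from 11 to 7 without 1 young cell. The settings without the 3 neutrophil genes, per cell, without Ifi27l2a, with 6 other members and without the dendritic cell were chosen after seeing the data. No paired analysis was possible because each age had 1 library. Depth limits the members near 20 UMIs, such as Mx1, Ifit3b and Phf11d, and all values in labels under 100 cells.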
